A study of Mus musculus with 25 samples.

Results

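The accessibility of chromatin in retinal progenitor cells was compared between embryonic day 16.5 (E16.5) and E14. The comparison used 4 of the 25 libraries of the series: 2 ATAC-seq libraries of GFP+ cells at E16.5 and 2 of GFP+ cells at E14, chosen by their labelled stage and sort. Both groups were retinal cells of CD1 mice, sorted on green fluorescent protein (GFP) and labelled as retinal progenitor cells. No genotype other than the strain, no treatment, no reporter and no pooling of animals is given in the labels, so p-values measure the spread between libraries, which may be technical. In the 13 ATAC-seq libraries, E12.5, E14, E16.5, E18, postnatal day 0 (P0) and P2 have 2 libraries each and E10 has 1. The other 12 libraries are RNA-seq of GFP+ and GFP- cells at E14, E18 and P2.

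ATAC-seq uses a transposase that cuts DNA where nucleosomes leave it exposed, so a count of its insertions is a measure of how open a stretch of chromatin is. Retinal progenitors are multipotent dividing cells that make neuron types in an overlapping order, with ganglion cells, horizontal cells and cones among the first and bipolar cells and Mueller glia among the last. Notch signalling keeps progenitors from differentiating: Delta ligands on a differentiating cell activate Notch receptors on its neighbours, which then express Hes and Hey repressors. Temporal identity is tied to RNA-binding proteins of the Lin28 and Igf2bp families in early progenitors and to nuclear factor I (NFI) transcription factors in late ones. In bulk libraries, fewer open cells and less opening per cell cannot be told apart.

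Accessibility is given as counts per 1e6 counts of the library (CPM) in a region of 10 kb centred on a transcript start. The start itself is the central 800 bp of that region and the flanks are the rest. Fold changes are log2 values of E16.5 over E14 with their standard error (SE), and a feature was called at an adjusted p under 0.05. The 4 libraries held 39314398 and 39693178 counts in regions at E16.5 and 67780849 and 84474514 at E14, so counting error was small beside the spread between libraries for most regions. The mean count at starts was 26.7 and 23.7 times that at the region edges at E16.5 and 24.9 and 25.45 times at E14. It was 19.9 and 18.5 times at E12.5, 25.8 and 25.05 at E18 and 27.8 and 28.6 at P0. At E10 it was 6.4 times and at P2 22.7 and 12.2 times. Counts over exons per 100 region counts were 12.6 and 12.7 at E16.5 and 18.9 and 18.8 at E14, and 12.6 to 14.2 in the libraries of other stages. The part of that gap in the exon results was not tested.

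Of 27743 regions tested, 2719 (9.8%) were higher at E16.5 and 2675 (9.64%) were lower, 5394 (19.4%) in all. Most changes were small: 187 regions were at least 2-fold higher, 117 at least 2-fold lower, 9 at least 4-fold higher and 2 at least 4-fold lower. The count fell to 2188 without E14 replicate 2, to 3285 without E16.5 replicate 2 and to 1353 when all 13 libraries shared 1 estimate of spread. The preceding step, E14 against E12.5, changed 20206 regions (72.8%), and the next, E18 against E16.5, changed 2892 (10.4%). These steps share libraries with the step from E14 to E16.5. The ratio of start to edge counts was lower at E12.5 (19.9 and 18.5) than at E14 (24.9 and 25.45). The part of that gap in the 20206 regions was not tested.

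**Figure D1:**
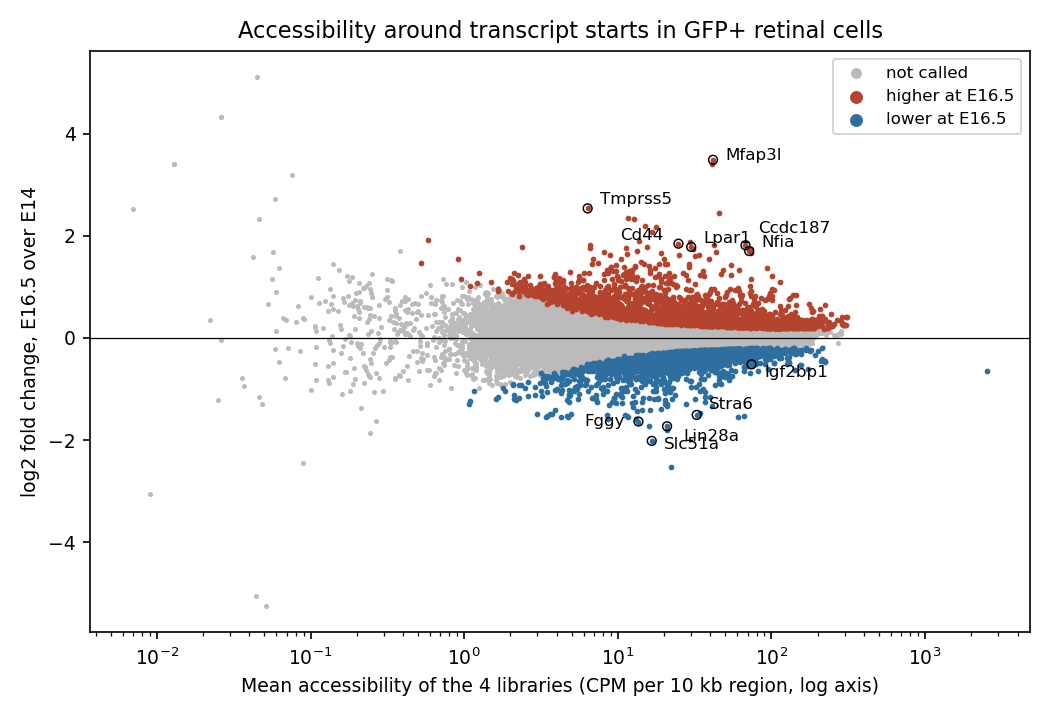
Log2 fold change of E16.5 over E14 for 27743 regions of 10 kb (y axis) against the mean CPM of the 4 libraries (x axis, log scale), with red points higher at E16.5, blue points lower and grey points not called. Circled genes are named in the text, and Mfap3l stands highest at 3.49.

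The regions with the highest fold changes belonged to genes of varied function. A start region of Mfap3l, a membrane glycoprotein gene, at chr8:63129354-63139353 (mm9, + strand) had 73.5 and 79.5 CPM in E16.5 libraries, against 7.29 and 6.39 CPM in E14 libraries. Its log2 fold change was 3.49 ± 0.104 (SE, n = 2 each, adjusted p = 3.66e-35 by the quasi-likelihood test of edgeR), and it was 1 of 3 start regions of the gene and not the most open of them. The gain lay in the flank: the 200 bp window 2100 bp downstream of the start had 27.5 and 26.1 CPM at E16.5 and 0.979 and 0.819 CPM at E14. The start of Tmprss5, a membrane-bound serine protease gene, had 18.6 and 17.2 CPM at E16.5 against 0.771 and 0.545 CPM at E14 (log2 fold change 4.78, adjusted p = 3.0e-50). Of the 3 start regions of Lpar1, a receptor for lysophosphatidic acid, 1 had 45.9 and 47.2 CPM at E16.5 against 14.0 and 13.1 CPM at E14, and its start alone 44.9 and 40.5 CPM against 2.44 and 2.60 CPM (log2 fold change 4.08). The rule that named these genes required libraries of the stages not to overlap. Pou2f1, which encodes the octamer-binding factor Oct1, was higher at 1 of 2 start regions, with 27.2 and 27.02 CPM at E16.5 and 6.65 and 6.17 CPM at E14 (log2 fold change 2.08 ± 0.102). The other start region of Pou2f1, which was more open, was called lower (log2 fold change -0.22, adjusted p = 0.0159 by edgeR). It had 130.0 and 134.1 CPM at E16.5 and 154.5 and 152.8 CPM at E14. Krt15, a keratin gene, gained 2.35 and Fxyd3, a regulator of the sodium pump, gained 2.16 on the log2 scale, in both cases with most counts outside the start.

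Cd44, a hyaluronan receptor that marks Mueller glia and their precursors in the mouse retina, rose at its start and over its region. It had 37.8 and 39.9 CPM at E16.5 against 11.0 and 10.6 CPM at E14 in chr2:102736822-102746821 (mm9, - strand), a log2 fold change of 1.84 ± 0.101 (adjusted p = 1.79e-22). Its start had 47.1 and 47.7 CPM at E16.5 and 12.4 and 12.5 CPM at E14. Its exons were also among the 12 with the highest fold changes of called genes.

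**Figure D2:**
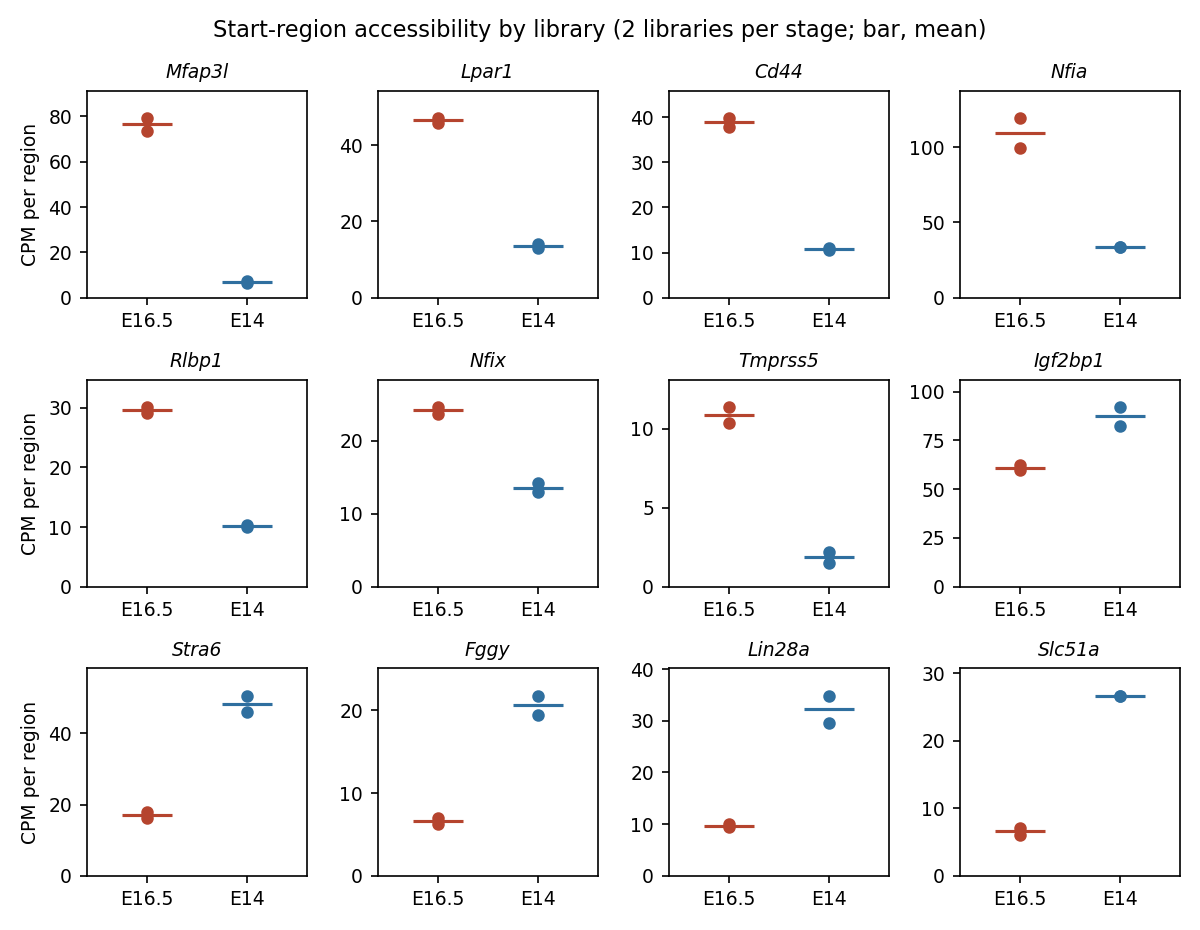
CPM per 10 kb start region of 12 genes, with the 2 E16.5 libraries on the left and the 2 E14 libraries on the right of each panel (points, libraries; bars, means; each panel has its own y axis). The scales differ widely, with Mfap3l at 73.5 and 79.5 CPM at E16.5 against 7.29 and 6.39 CPM at E14.

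Late progenitor genes gained accessibility. Each gene list was counted at the most open start region of each gene. List counts stand beside 9.8% higher and 9.64% lower of all regions, and over exons beside 12% and 16.1% of all genes. Of 13 genes on a list of late progenitor genes, 6 were called higher and 0 lower, with a median log2 fold change of 0.17 against 0.007 over all regions tested, and all 6 kept the call when all 13 libraries shared the fit. Nfia, an NFI transcription factor, had 99.4 and 119.8 CPM at E16.5 against 34.0 and 33.5 CPM at E14 in chr4:97243634-97253633 (mm9, + strand), with a log2 fold change of 1.70 ± 0.079 (adjusted p = 1.06e-25). This region shares windows with that of an overlapping RIKEN transcript, so the gain cannot be assigned to 1 of them. Nfix had 23.7 and 24.7 CPM at E16.5 against 13 and 14.2 CPM at E14 (log2 fold change 0.83 ± 0.101, adjusted p = 2.34e-09). Nfib had 135.6 and 151 CPM at E16.5 against 131.4 and 126 CPM at E14 and did not pass the test (log2 fold change 0.16 ± 0.073, adjusted p = 0.129). Of the 4 NFI genes, Nfia and Nfix were called higher and 0 lower.

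Rlbp1, which encodes the retinaldehyde-binding protein of Mueller glia and pigment epithelium, had 30.2 and 29.2 CPM at E16.5 against 9.93 and 10.4 CPM at E14 (log2 fold change 1.55 ± 0.1, adjusted p = 3.09e-19). A gain lay in the 200 bp window at chr7:86533713-86533912 (mm9), 1900 bp upstream of its start, with 10.6 and 8.85 CPM at E16.5 and 0.459 and 0.391 CPM at E14. The overlapping window counted for the neighbouring gene Fanci had 10.97 and 9.54 CPM at E16.5 and 0.459 and 0.404 CPM at E14, so the gain cannot be assigned to 1 of these genes. Crym, a thyroid hormone-binding protein gene, had 17.1 and 16.3 CPM at E16.5 against 7.62 and 7.42 CPM at E14, and Car2, a carbonic anhydrase gene, had 79.9 and 85.5 CPM against 53.4 and 49.4 CPM. Of 14 Mueller glia genes, 6 were called higher and 0 lower (3 and 0 with all 13 libraries), among them Aqp4, a water channel gene, with a log2 fold change of 0.78, and Kcnj10, a potassium channel gene, with 0.33. Counting every start region of these genes, 1 member had a lower one. That list shares Rlbp1 and Car2 with the late progenitor list.

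The promoters of 5 genes whose starts changed are shown, since their sequence and base composition can be read beside the gain or loss of openness at the start. Each runs 5′ to 3′ on the strand of the gene, from 250 bases before to 50 after the start, from RefSeq annotation of GRCm38.p6. That build is not the one of the counts, so genes were matched by symbol. Capitals mark matches to 1 of 6 motifs searched on both strands: the NFI site TTGGCA, the CCAAT box CCAAT, the TATA box TATAAA, the E-box CAGCTG, the homeodomain site TAATTA and the GC box GGGCGG. The NFI site can overlap a CCAAT box read on the other strand.
Cd44 (chr2:102901616-102901915, - strand, higher at E16.5): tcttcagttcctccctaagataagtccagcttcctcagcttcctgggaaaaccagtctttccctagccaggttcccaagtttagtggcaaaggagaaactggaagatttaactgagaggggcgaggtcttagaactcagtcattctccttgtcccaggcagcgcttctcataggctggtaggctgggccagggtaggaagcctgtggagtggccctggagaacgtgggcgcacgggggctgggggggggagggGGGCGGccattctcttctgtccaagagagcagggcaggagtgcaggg
Rlbp1 (chr7:79386978-79387277, - strand, higher at E16.5): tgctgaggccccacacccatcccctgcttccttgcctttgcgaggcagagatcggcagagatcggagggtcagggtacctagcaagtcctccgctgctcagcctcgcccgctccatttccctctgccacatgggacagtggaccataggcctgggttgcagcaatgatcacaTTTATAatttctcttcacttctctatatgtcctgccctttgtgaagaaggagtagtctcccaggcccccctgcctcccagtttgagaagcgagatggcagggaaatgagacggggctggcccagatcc
Dll3 (chr7:28301736-28302035, - strand, higher at E16.5): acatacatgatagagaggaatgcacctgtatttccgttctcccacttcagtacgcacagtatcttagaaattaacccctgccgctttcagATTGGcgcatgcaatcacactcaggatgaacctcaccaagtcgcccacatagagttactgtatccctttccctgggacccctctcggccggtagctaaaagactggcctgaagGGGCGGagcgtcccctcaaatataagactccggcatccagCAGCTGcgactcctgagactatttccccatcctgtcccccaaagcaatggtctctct
Lin28a (chr4:134018767-134019066, - strand, lower at E16.5): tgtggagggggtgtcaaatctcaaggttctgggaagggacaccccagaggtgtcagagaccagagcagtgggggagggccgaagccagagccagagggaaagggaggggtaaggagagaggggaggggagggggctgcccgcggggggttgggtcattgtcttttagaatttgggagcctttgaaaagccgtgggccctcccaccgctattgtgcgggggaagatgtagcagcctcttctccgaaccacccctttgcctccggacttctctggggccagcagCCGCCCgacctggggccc
Wnt7a (chr6:91411304-91411603, - strand, lower at E16.5): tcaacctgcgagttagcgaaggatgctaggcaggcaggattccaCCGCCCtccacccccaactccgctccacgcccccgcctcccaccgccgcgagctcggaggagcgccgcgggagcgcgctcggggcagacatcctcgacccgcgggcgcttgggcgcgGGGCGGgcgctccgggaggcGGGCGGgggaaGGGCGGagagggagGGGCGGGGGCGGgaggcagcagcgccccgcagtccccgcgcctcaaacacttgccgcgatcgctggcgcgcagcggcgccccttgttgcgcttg

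The promoter of Cd44 was 58.0% GC and held 1 GC box, that of Rlbp1 was 57.3% GC and held 1 TATA box, and that of Dll3 was 52.0% GC and held a CCAAT box, a GC box and an E-box. The promoter of Lin28a was 63.3% GC with 1 GC box. That of Wnt7a was 76.0% GC, with 42 CpG dinucleotides and 6 GC boxes. A GC box occurs in 35.7%, a CCAAT box in 37.4%, a TATA box in 13.6% and this E-box in 16.3% of all 32851 promoters of that table. Among genes with 1 promoter and 1 tested start, a CCAAT box stood in 48.1% of 886 promoters with a higher start, 33.2% of 1146 with a lower start and 38.7% of all 13737. A GC box stood in 63.0%, 66.2% and 47.6% of the same promoters, and their median GC content was 59.7%, 62.3% and 56.7%. In the same order, the NFI site stood in 14.4%, 9.8% and 13.1% and the E-box in 16.9%, 16.5% and 15.8%. The TATA box stood in 8.5%, 6.6% and 12.9% and the homeodomain site in 3.2%, 2.3% and 4.7%. These are descriptions of letters in the window and name no bound factor.

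Of 18 Notch pathway genes, 11 were called higher and 1 lower, with a median log2 fold change of 0.24. Over exons, 7 were higher and 3 lower, against 12% and 16.1% of all genes. The Delta ligand genes Dll1, Dll3 and Dll4 were higher by 0.40, 0.63 and 0.49 on the log2 scale. Dll3 had 43.2 and 37.1 CPM at E16.5 against 24.7 and 27 CPM at E14, and its start had 24.2 and 23.2 CPM against 10.9 and 12.7 CPM (adjusted p = 3.3e-09 for the start). Jag2, a ligand of another class, was lower, with 41.3 and 38.6 CPM at E16.5 and 45.7 and 48.1 CPM at E14 (log2 fold change -0.23, adjusted p = 0.0442). The receptor gene Notch1 had 226 and 208 CPM at E16.5 against 144 and 162 CPM at E14 (log2 fold change 0.50 ± 0.07), while its start alone gave -0.05 (adjusted p = 0.79), so the gain lay in the flanks. The other receptor genes on the list, Notch2 and Notch3, had log2 fold changes of -0.21 and -0.22 and did not pass the test (adjusted p = 0.0681 and 0.0659), nor did the ligand gene Jag1 at -0.14.

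Lfng and Mfng encode glycosyltransferases that set which ligands Notch receives. Lfng had 187 and 169 CPM at E16.5 against 95.7 and 103 CPM at E14 (log2 fold change 0.84, adjusted p = 1.18e-14), and Mfng gained 0.46. Among the target repressors, Heyl had 21.8 and 20.5 CPM at E16.5 against 10.8 and 9.77 CPM at E14 (log2 fold change 1.04 ± 0.107, adjusted p = 1.38e-11). Hey1, Hey2 and Hes5 gained 0.25, 0.29 and 0.23. Hes1 had 225 and 242 CPM at E16.5 and 202 and 217 CPM at E14 and did not pass the test (adjusted p = 0.0961). With all 13 libraries in the fit 4 members were called higher and 0 lower, and the calls of Notch1, Dll4 and Hes5 were among those lost. Scaling by loess offsets on abundance left 7 higher and 2 lower. The lower members numbered 4 without TMM scaling, without E16.5 replicate 1 and with start enrichment as a covariate.

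Of 18 neurogenic genes, which partly overlap the Notch list, 10 were called higher and 2 lower (median 0.29; 4 and 0 with all 13 libraries). Over exons, 4 were higher and 4 lower, against 12% and 16.1% of all genes, with a median of -0.0066. Olig2, a factor of neurogenic progenitors, had 87.9 and 85.1 CPM at E16.5 against 58.9 and 63.6 CPM at E14. Neurog2, a proneural factor, had 164 and 168 CPM at E16.5 against 140 and 134 CPM at E14, a smaller gain of 0.27 (adjusted p = 0.00251). The call of Neurog2 was lost without E14 replicate 2, with all 13 libraries and with loess offsets on abundance. Atoh7, the proneural factor required for ganglion cells, was lower, with 44.1 and 44.2 CPM at E16.5 against 55.2 and 58.7 CPM at E14 (log2 fold change -0.37, adjusted p = 0.00126). Otx2, a factor of photoreceptor and bipolar fate, was lower over its most open region by 0.31 (adjusted p = 0.00239), with 49.6 and 48.3 CPM at the start at E16.5 and 52.1 and 48.4 CPM at E14. The calls of Olig2, Atoh7 and Otx2 were lost when all 13 libraries shared the fit.

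**Figure D3:**
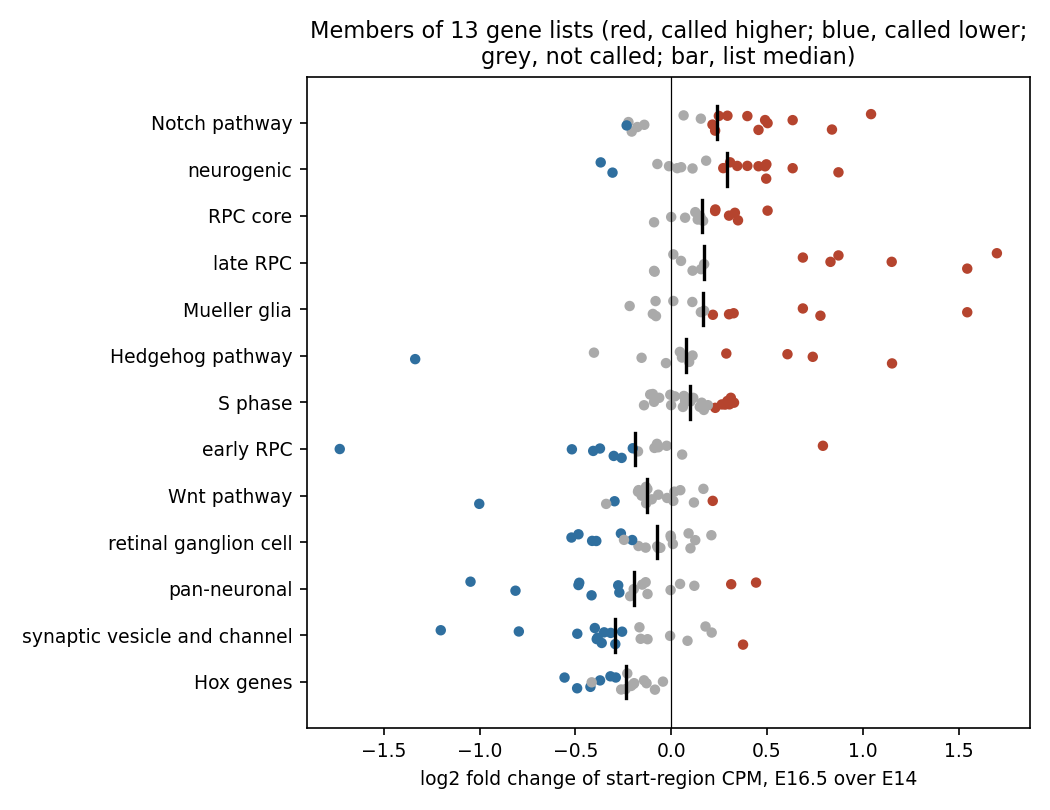
Log2 fold change of start-region CPM, E16.5 over E14 (x axis), of the members of 13 gene lists (rows); red points were called higher, blue points lower and grey points not called, and the bar is the list's median. Notch, neurogenic and late progenitor genes lie mostly right of 0 and synaptic and pan-neuronal genes mostly left of it.

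Early progenitor genes lost accessibility from E14 to E16.5, led by Lin28a. Of 14 genes, 7 were called lower and 1 higher (median log2 fold change -0.19; 3 lower and 1 higher with all 13 libraries). Lin28a, an RNA-binding protein that blocks the maturation of let-7 microRNAs, had 9.93 and 9.47 CPM at E16.5 against 29.5 and 34.9 CPM at E14 in chr4:133569731-133579730 (mm9, - strand). Its log2 fold change was -1.73 ± 0.119 (adjusted p = 3.72e-18), and at its start -2.13, with 2.04 and 3.12 CPM at E16.5 and 10.2 and 12.4 CPM at E14. Its paralog Lin28b had 32.7 and 37.4 CPM at E16.5 against 44.0 and 42.5 CPM at E14 (log2 fold change -0.30, adjusted p = 0.0144 by edgeR). The call of Lin28b was lost without either E14 replicate and without E16.5 replicate 1. It was also lost with loess offsets on abundance and with all 13 libraries. Igf2bp1, an mRNA-binding protein gene, had 62.3 and 59.8 CPM at E16.5 against 82.5 and 92.4 CPM at E14 (log2 fold change -0.52 ± 0.079, adjusted p = 7.91e-07).

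Foxp1, a factor of early-born cell fates in mouse retina, had 90.7 and 103 CPM at E16.5 against 119 and 132 CPM at E14 (log2 fold change -0.37), and Igf2bp2 and Ikzf1 were lower by 0.20 and 0.26. The member that rose was Fgf3, a growth factor gene, with 37.5 and 35.3 CPM at E16.5 against 20.3 and 21.7 CPM at E14 (log2 fold change 0.79, adjusted p = 1.75e-09). The Wnt inhibitor gene Sfrp2, Fgf15 and Hmga2 did not pass the test, with log2 values of -0.17, -0.02 and -0.09. The call of Foxp1 was lost when all 13 libraries shared the fit, and that of Ikzf1 also without any 1 of the 4 libraries. Of the 14 early progenitor genes, 7 were higher and 3 lower at P0 than at E12.5 (median 0.19). The shares over all regions in that contrast were 38.7% higher and 39.1% lower.

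Of 14 core progenitor genes, 6 were called higher and 0 lower at the most open region (median 0.16), and none of the 6 with all 13 libraries in the fit. Counting every start region, 6 members had a higher one and 2 had a lower one. Pax6 was among the latter, with a log2 fold change of -0.25 at 1 start region (adjusted p = 0.0079 by edgeR). Sox2, a pluripotency and progenitor factor, had 144 and 156 CPM at E16.5 against 118 and 121 CPM at E14 (log2 fold change 0.33), and Six3, an eye-field factor, gained 0.35. The summed CPM of the core list was 2082 and 2126 at E16.5 and 1754 and 1880 at E14, so its markers were open in all 4 libraries. Of 25 S phase genes, 7 were higher and 0 lower, among them Pcna, the sliding clamp of DNA polymerase, with 0.30, and Uhrf1, which recruits maintenance methylation, with 0.31. None of the 7 calls held with all 13 libraries. Of 25 G2/M genes, 2 were higher and 3 lower, against 9.8% and 9.64% of all regions, and 0 either way with all 13 libraries.

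Over 10 kb regions, the Hedgehog ligand gene Shh was lower and some known target genes of the pathway were higher. Of 12 genes 4 were called higher and 1 lower (3 and 1 with all 13 libraries). Exon counts gave 4 higher and 4 lower, with a median of -0.012. Gli1, Hhip and Ptch1 were among the higher genes, each a known transcriptional target of the pathway: Gli1 is its activator factor, Ptch1 is a receptor and Hhip binds the ligand. Hhip had 99.1 and 103.7 CPM at E16.5 against 45.3 and 45.9 CPM at E14 (log2 fold change 1.153 ± 0.074, adjusted p = 2.38e-19). Gli1 had 127 and 127 CPM at E16.5 against 74.96 and 77.1 CPM at E14 (log2 fold change 0.74 ± 0.07, adjusted p = 1.09e-12). At the start of Ptch1 the sign was opposite to that of the region, with 41.2 and 44.6 CPM at E16.5 and 53.9 and 52.0 CPM at E14 (log2 fold change -0.30, adjusted p = 0.033). The ligand gene Shh, which ganglion cells express in the retina, had 12.5 and 11.1 CPM at E16.5 against 29.8 and 29.7 CPM at E14 (log2 fold change -1.34 ± 0.114, adjusted p = 2.07e-14). Loess offsets on abundance gave 3 higher and 3 lower on this list.

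Of 19 Wnt pathway genes, 1 was higher and 2 lower, against 9.8% and 9.64% of all regions. The ligand gene Wnt7a had 13.4 and 13.2 CPM at E16.5 against 26.04 and 27.3 CPM at E14 (log2 fold change -1.002 ± 0.111, adjusted p = 1.62e-10), and Fzd2, a receptor gene, was lower by 0.30. Fzd5, the Wnt receptor of progenitors, gained 0.22, a call lost without any 1 of the 4 libraries. Of 15 FGF pathway genes, 5 were higher and 2 lower. They were the ligand gene Fgf3 and the feedback and target genes Spry2, Spry4, Etv1 and Etv5 on the higher side and the receptor genes Fgfr2 and Fgfr3 on the lower side. The call of Fgf3 was the 1 that held with all 13 libraries.

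Genes of 3 neuronal lists were called lower more often than higher. Of 19 ganglion cell genes, 6 were called lower and 0 higher (median -0.07; 3 and 0 with all 13 libraries). Of 17 pan-neuronal genes, 7 were lower and 2 higher (median -0.20; 2 and 0), and of 19 genes of synaptic vesicles and channels, 11 were lower and 1 higher (median -0.29; 4 and 0). Scn3a, a sodium channel gene, had 10.3 and 11.9 CPM at E16.5 against 26.04 and 25.1 CPM at E14 (log2 fold change -1.20 ± 0.114, adjusted p = 9.73e-13). The start of Scn3a alone gave -0.22 and did not pass the test (adjusted p = 0.487 by edgeR). Ina, a neurofilament gene, had 13.1 and 12.8 CPM at E16.5 against 21.7 and 23.8 CPM at E14, and Nefl, the light neurofilament gene, had 19.5 and 18.3 CPM against 26.98 and 27.3 CPM. Dcx, a microtubule protein of migrating neurons, had 3.29 and 3.15 CPM at E16.5 against 7.07 and 6.27 CPM at E14. Isl1, a factor of ganglion, amacrine and bipolar cells, had 74.7 and 84.6 CPM at E16.5 and 104 and 105 CPM at E14. Syt1, a calcium sensor of vesicle release, went the other way, with 133 and 135 CPM at E16.5 against 103 and 94.6 CPM at E14 (log2 fold change 0.44). Pou4f2, which specifies ganglion cells, had 50.9 and 53.0 CPM at E16.5 and 45.4 and 44.4 CPM at E14 and did not pass the test. Over exons, 4 pan-neuronal genes were higher and 2 lower. Other lists had more members higher than lower over start regions. They had 6 of 15 amacrine cell genes higher and 2 lower, and 5 of 20 axon guidance genes higher and 1 lower. Of 11 cone genes, 2 were higher and 0 lower, and of 8 horizontal cell genes, 2 were higher and 1 lower. Rod genes had 2 of 18 called each way and bipolar cell genes 1 of 13. The shares over all regions were 9.8% higher and 9.64% lower. Over exons, the counts higher and lower were 3 and 4 for amacrine cell genes, 1 and 3 for horizontal cell genes, 2 and 1 for cone genes and 8 and 4 for axon guidance genes.

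These lists hold markers of neurons that a sort on GFP could carry over. Their summed CPM was 995.6 and 1029 at E16.5 and 1082 and 1090 at E14 for ganglion cell genes, and 675.3 and 672.3 at E16.5 and 707 and 703.5 at E14 for pan-neuronal genes. Markers of other tissues were also measured. Pigment epithelium genes summed to 179.8 and 192.5 CPM at E16.5 and 144.4 and 141.5 CPM at E14, with 2 of 10 called higher, Ttr and Rlbp1, and 0 lower. Endothelial genes summed to 196.4 and 206.2 CPM at E16.5 and 162.3 and 158.9 CPM at E14, with 3 of 9 higher and 2 lower. Microglia genes summed to 36.2 and 34.8 CPM at E16.5 and 40.6 and 40.7 CPM at E14, with 0 of 8 called either way. Lens genes summed to 88.7 and 93.2 CPM at E16.5 and 92.0 and 90.5 CPM at E14, with 0 of 10 called at the most open region and 1 higher at another. Mesenchyme genes summed to 319.3 and 357.4 CPM at E16.5 and 314.6 and 318.6 CPM at E14, with 4 of 10 higher and 1 lower. Astrocyte genes summed to 193.3 and 192.7 CPM at E16.5 and 197.1 and 210.3 CPM at E14, with 1 of 6 higher and 2 lower. Erythroid genes summed to 69.7 and 73.5 CPM at E16.5 and 68.1 and 65.4 CPM at E14, with 0 of 7 higher and 1 lower. The shares over all regions were 9.8% higher and 9.64% lower. None of these lists was at 0 in a library, and their part in the results was not tested.

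Other genes with large losses were also found. Stra6, the receptor that takes up retinol, had 17.8 and 16.2 CPM at E16.5 against 45.99 and 50.6 CPM at E14 in 1 of its 4 start regions, a log2 fold change of -1.51. Sall4, a zinc finger factor of embryonic stem cells, had 23.5 and 23.1 CPM at E16.5 against 56.6 and 60.2 CPM at E14 (log2 fold change -1.33 ± 0.09, adjusted p = 1.91e-18). Slc51a, a subunit of a steroid transporter, had 7.13 and 6.06 CPM at E16.5 against 26.7 and 26.6 CPM at E14, a log2 fold change of -2.02 ± 0.136. Fez1, a gene of axon growth, was lower by 1.73 and Slc13a1, a sulphate transporter gene, by 1.80, both mainly outside the start. Of 17 Hox genes, the patterning factors of the trunk and hindbrain, 6 were lower and 0 higher (median -0.24; 1 and 0 with all 13 libraries). The lowest of them, Hoxb4, had a log2 fold change of -0.56. At P0 against E12.5, 14 of the 17 Hox genes were higher and 0 lower (median 0.85). The shares over all regions in that contrast were 38.7% higher and 39.1% lower.

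Starts and flanks were also tested separately, without a test of the difference between them. Of 26880 starts tested, 1858 (6.91%) were higher at E16.5 and 2334 (8.68%) lower, and of 27723 flanks, 2292 (8.27%) were higher and 1886 (6.8%) lower. In 26874 regions with both tested, 706 were higher in both and 617 lower in both. A start was higher with no call in the flanks in 1131 regions and lower in 1684. In 21 regions the start was higher and the flanks lower, and in 33 the start was lower and the flanks higher. The total of called starts, 4192, fell to 2599 without E14 replicate 1, 1552 without E14 replicate 2 and 2264 without E16.5 replicate 2, and that of flanks, 4178, to 1664 without E14 replicate 2 and 2536 without E16.5 replicate 2. The balance of starts depended on scaling, with 2154 higher and 2140 lower by relative log expression, 2081 and 2013 by DESeq2 and 1677 and 1466 with loess offsets. At the finest scale, 17656 of 686187 windows of 200 bp (2.57%) were higher and 13045 (1.9%) lower. Without TMM scaling 16530 were higher and 18962 lower, so this balance turned with scaling. Within 400 bp of a start 4.45% of windows were higher and 3.67% lower, against 2.31% and 1.58% at 4 to 5 kb, where counts were also lower (median 9.75 per window and library, against 194.2 near starts). Called windows were mostly isolated: of 12343 runs of higher windows, 9951 were a single window and 1077 held 3 or more, the longest 30. Of 9761 runs of lower windows, 7899 were a single window and 708 held 3 or more. The 30701 called windows fell to 17984 without E14 replicate 1 and 13733 without E14 replicate 2. Neighbouring windows and overlapping regions are not independent.

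**Figure D4:**
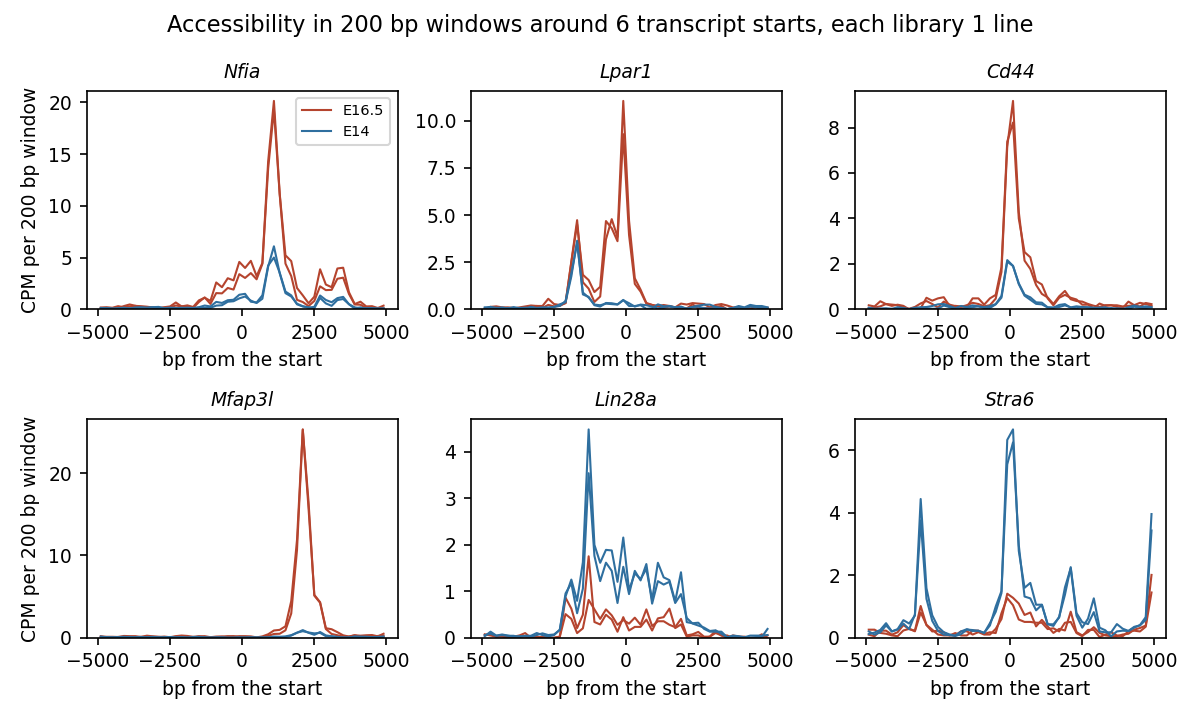
CPM per 200 bp window (y axis) against the distance from the transcript start in bp (x axis; positive is into the gene) for 6 genes, each library 1 line, E16.5 in red and E14 in blue. The E16.5 lines of Mfap3l peak 2100 bp into the gene, where those of E14 lie near 0, and the gain of Lpar1 lies at its start.

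Over exons, 2527 of 21056 genes (12%) were higher and 3387 (16.1%) lower. Without the scaling step by trimmed mean of M values (TMM) the split was 3446 higher and 2707 lower, so the balance of directions over exons depends on scaling. The total of 5914 fell to 3744 without E16.5 replicate 2. The higher share of exon counts in both E14 libraries, given above, stands beside these calls. The genes at the top of the exon ranking included Cd44 and Ttr, and those at the bottom included Lin28a and Sall4.

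The libraries at P0 and E12.5 give the same measure in samples outside the comparison. Of windows higher at E16.5 than at E14, 50.2% (8865 of 17656) were also higher at P0 than at E12.5, against 9.3% of all windows. Of windows lower at E16.5, 39.9% (5209 of 13045) were also lower at P0, against 7.37% of all. The share over all windows includes many with few counts, and the shares were not matched for depth. Over 10 kb regions, 53.4% of those higher at E16.5 were higher at P0 than at E12.5, against 38.7% of all, and 40.0% of those lower at E16.5 were lower at P0, against 39.1% of all. In the opposite direction, 25.9% of higher regions were lower at P0 and 29.9% of lower regions were higher. By list, the counts higher and lower at P0 were 12 and 0 for late progenitor genes and 15 and 1 for Notch genes. They were 8 and 6 for ganglion cell, 2 and 9 for pan-neuronal and 5 and 6 for synaptic vesicle and channel genes. Of genes higher over exons, 45.9% were higher at P0, against 32.9% of all, and 20.6% lower. Genes lower over exons were more often higher at P0 (37.7%) than lower (24.3%, against 27.5% of all). Both contrasts came from 1 fit and share its estimate of spread. The ratio of start to edge counts was 27.8 and 28.6 at P0 and 19.9 and 18.5 at E12.5. The part of that gap in these shares was not tested.

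Across the stages, Nfia had 32.9 and 33.4 CPM at E12.5, 34.0 and 33.5 CPM at E14, 99.4 and 119.8 CPM at E16.5, 128.7 and 119.1 CPM at E18 and 112.1 and 117.1 CPM at P0. Its step from E14 to E16.5 exceeded the step from E16.5 to E18 by 1.52 on the log2 scale (adjusted p = 1.29e-13), 1 of 1886 regions (6.8%) with such a positive difference, against 1264 (4.56%) with a negative one. These 3150 regions fell to 1486 without E14 replicate 2, 1006 without E16.5 replicate 2 and 1349 without E18 replicate 2. Nfix kept rising, with 39.3 and 40.6 CPM at E18 and 50.2 and 58.6 CPM at P0, and its 2 steps differed by 0.11 (adjusted p = 0.742). Lin28a had 26.4 and 27.6 CPM at E12.5 and 11.1 and 9.32 CPM at E18, so its loss lay between E14 and E16.5. Igf2bp1 had 57.8 and 62.6 CPM at E12.5, below its E14 libraries and near those of E16.5. Cd44 was lower at E14 than at E12.5, where it had 19.6 and 24.5 CPM, and again lower at E18, with 30.5 and 30.7 CPM, than at E16.5 (adjusted p = 0.0132). Fggy, a carbohydrate kinase gene, had 37.2 and 40.7 CPM at E12.5, 21.8 and 19.4 CPM at E14, 6.30 and 6.95 CPM at E16.5 and 23.9 and 22.4 CPM at E18, so that E16.5 was its lowest stage before a return.

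**Figure D5:**
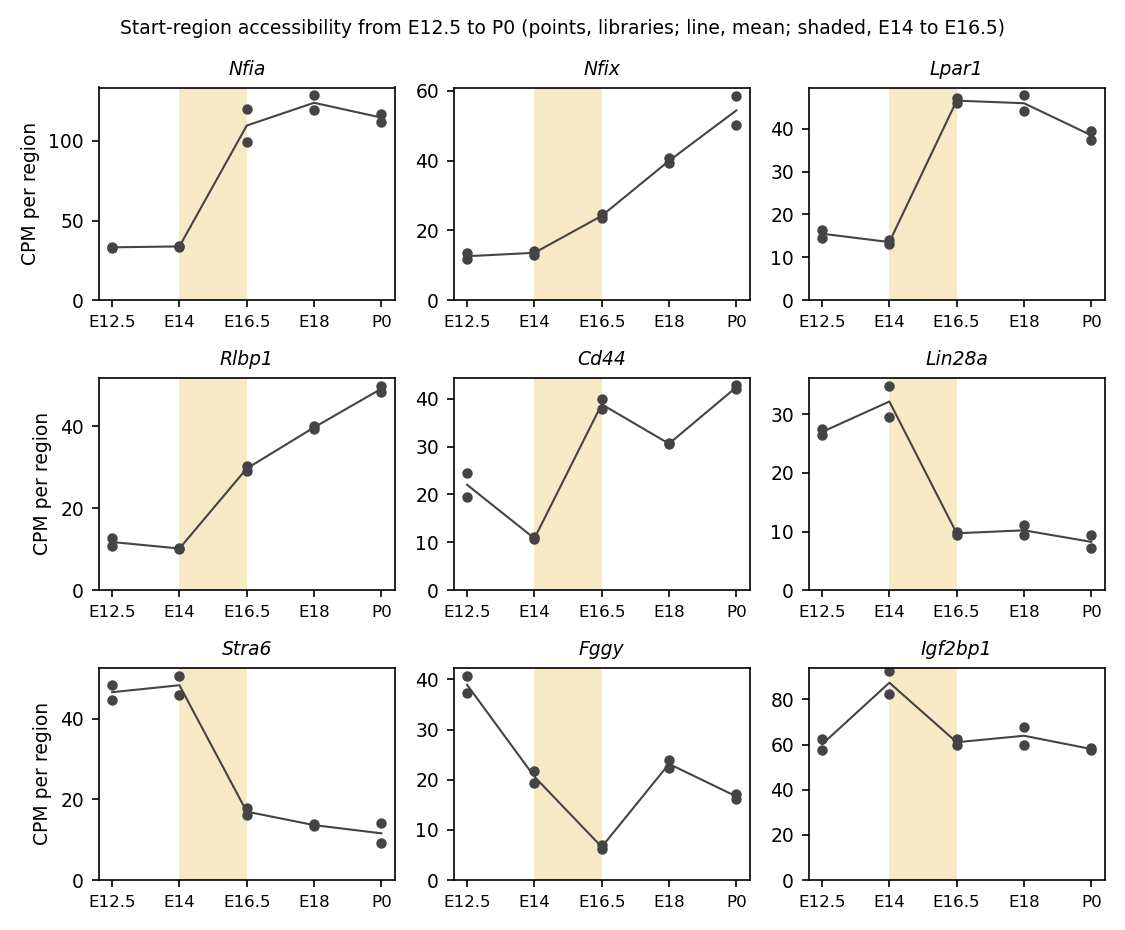
CPM per 10 kb start region of 9 genes from E12.5 to P0 (x axis, stage; points, 2 libraries; line, mean; the shaded band spans E14 to E16.5). Nfia and Cd44 step up and Lin28a and Stra6 step down in the band, and Fggy is lowest at E16.5.

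Messenger RNA of GFP+ cells was measured at E18 and E14 but not at E16.5, so it spans the comparison without matching it. The 2 E14 GFP+ RNA libraries disagreed with each other, which limits every RNA value here: Cd44 had 28.6 and 0.21, Gli1 72.3 and 0.357, Lin28a 0.164 and 10.8 and Stra6 3.60 and 61.0 FPKM (fragments scaled by transcript length and library size) in replicates 1 and 2. Of 14276 genes, 623 (4.36%) were higher at E18 and 580 (4.06%) lower by limma. The total of 1203 was 503 without E14 replicate 2, 359 without E18 replicate 1 and 385 without E18 replicate 2. Of 1452 genes with a higher start region and an RNA value, 99 had higher RNA (6.82%, against 3.4% of all such genes) and 36 lower. Of 1621 genes with a lower region, 85 had lower RNA (5.24%, against 4.1%) and 62 higher.

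Rlbp1 had 14.6 and 15.4 FPKM at E18 against 2.66 and 0.414 FPKM at E14 (difference 2.82 on the log2(FPKM + 1) scale, adjusted p = 0.0351 by limma). Nfix had 5.10 and 5.23 FPKM at E18 against 1.43 and 0.066 FPKM at E14 (1.94, adjusted p = 0.0283). Nfib, whose region did not pass the test, had 21.6 and 19.9 FPKM at E18 against 4.02 and 5.25 FPKM at E14 (1.96, adjusted p = 0.0183), and Nfia rose by 2.60 without passing (adjusted p = 0.0577). Of the 18 Notch pathway genes, 2 had higher RNA at E18, Dll1 and Hey2 (adjusted p = 0.0194 and 0.0251), and 1 had lower RNA, Rbpj, the DNA-binding partner of Notch (difference -0.70, adjusted p = 0.045). Six3, whose region was higher at E16.5, had lower RNA at E18 by 2.85 (adjusted p = 0.0018). Cd44, Gli1 and Lin28a did not pass.

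The direction of change followed base composition and chromosome. In the tenth of regions with the lowest GC content of the transcript, 12.1% were higher and 2.77% lower, against 7.19% higher and 17.3% lower in the tenth with the highest. On chromosome 18, 24.6% of regions were higher and 1.9% lower, and on chromosome 4, 6.31% were higher and 15.2% lower. With offsets for GC content, chosen after seeing the data, 4030 of 5394 region calls held in the same direction, with 17 sign changes among the 5321 that had a value. On those offsets Notch genes were 11 higher and 0 lower, late progenitor genes 6 and 0, early progenitor genes 1 and 6 and synaptic genes 2 and 9. Of 9 Y-linked regions, 3 were called lower at E16.5 and 0 higher. Ddx3y had 2.43 and 3.31 CPM at E16.5 and 7.06 and 6.58 CPM at E14 (log2 fold change -1.25), and Eif2s3y and Uty were lower by 1.22 and 1.04, while Usp9y and Zfy1 were not called (adjusted p = 0.307 and 0.936). Xist had a log2 fold change of 0.11 (adjusted p = 0.534). Of 1177 regions on chromosome X, 132 (11.2%) were higher and 31 (2.63%) lower, with a median log2 fold change of 0.13. The labels give no sex of the animals, and the part of base composition, chromosome and sex in the results was not tested.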

How the data were processed

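The deposited ATAC-seq tables hold raw counts per library, without normalization: the authors' counts in windows of 200 bp, in runs of 50 around transcript starts, and over the exons of 23284 genes. Chromosome ends place both on mm9. Bowtie2, HISAT2, Picard 2.10.7, SAMtools 1.5, bedtools 2.26.0 and featureCounts 1.5.3 are named in the submitters' processing notes, as are the builds mm10 and mm9, with no role stated. How duplicate fragments, mitochondrial reads and the offset of transposase insertions were handled is not given in the sources used here. The deposited RNA values are FPKM, a unit inferred from the values, so the depth of the RNA libraries is unknown.

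Runs of 50 windows were summed into 28329 regions of 10 kb, of which the central 4 windows are the start and the other 46 the flanks. Counts of the 10 libraries of E12.5, E14, E16.5, E18 and P0 (5 residual degrees of freedom) were fitted with edgeR 4.0.16 in R 4.3.3, with TMM scaling, its default filter on low counts and the quasi-likelihood test, and p was adjusted after Benjamini and Hochberg over all features tested. Windows needed at least 10 counts in at least 2 libraries. The SE is the log2 fold change over the root of the F statistic. RNA was fitted with limma 3.58.1 on log2(FPKM + 1) over 6 groups, for genes that reached 1 FPKM in 2 or more libraries. The scripts were tested on simulated data.

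The comparison, its 31 gene lists and its genes were chosen with earlier results of these data known. Named genes are 30 anchor genes, the 12 highest and 12 lowest called features each for regions, starts and exons with a mean of at least 50 counts and no overlap of replicates, 10 windows each way, and up to 4 members of each list by smallest p. Further list members, Y-linked genes and genes compared in RNA were chosen after their values were seen. Alternatives were other scalings, no filter, DESeq2 1.42.0, all 13 libraries, the 4 libraries alone, a replicate block, start enrichment as a covariate, GC offsets and leaving out each library. Where 1 library was left out, the remaining one of that stage was taken to vary like the other stages. Some genes that these rules take are not reported here.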

Additional observations from a re-analysis of the deposited data

Results flagged for a closer look

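Each result here differed between the step from E14 to E16.5 and the step from E16.5 to E18, tested as the difference of the 2 log2 changes by the quasi-likelihood test of edgeR. The difference is the first step minus the second, and the E16.5 libraries enter both steps with opposite sign. Of the genes below, Nfia, Rlbp1, Pou4f2, Sox2, Igf2bp1 and Otx2 were anchor genes. The others were named for a large first step, which the difference contains, so its sign was largely set by that choice. In 1886 regions (6.8%) the difference was positive and in 1264 (4.56%) it was negative. Both counts together were 1486 without E14 replicate 2, 1349 without E18 replicate 2 and 1006 without E16.5 replicate 2.

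Among named genes with a positive difference, the step to E16.5 exceeded the next by 3.26 for Mfap3l, 2.19 for Cd44, 1.92 for Kcnj16, 1.83 for Ccdc187, 1.83 for Sdr16c5, 1.80 for Lpar1, 1.75 for Tmprss5, 1.68 for Cnfn and 1.66 for Stmnd1. Smaller positive differences were 1.52 for Nfia, 1.498 for Krt15, 1.48 for Fxyd3, 1.13 for Rlbp1, 0.96 for Pou2f1, 0.65 for Pou4f2 and 0.35 for Sox2. The region of Pou4f2 did not pass the test for the first step alone and was lower in the second, with 38.14 and 38.11 CPM at E18 against 50.9 and 53.0 CPM at E16.5 (log2 fold change -0.45, adjusted p = 0.000176).

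Negative differences were -3.44 for Fggy, -2.34 for Tmem132cos, -1.99 for Slc51a, -1.79 for Snora19, -1.79 for Lin28a, -1.53 for P2rx7, -1.52 for Snhg14, -1.40 for Slc13a1, -1.25 for Fez1, -1.19 for Stra6, -0.59 for Igf2bp1 and -0.49 for Otx2. Of these 28 named genes, 2 were called in both steps with opposite sign. Fggy had 23.9 and 22.4 CPM at E18 against 6.30 and 6.95 CPM at E16.5, and Cd44 had 30.5 and 30.7 CPM at E18 against 37.8 and 39.9 CPM at E16.5.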

How the results depend on the processing

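Of the 225 region, start, exon and window values of named genes recomputed under the alternatives, all held their direction except 4 genes that were not called: Hes1 at -0.0399 and Zfp36l1 at -0.0496 with loess offsets on abundance, Fgf15 at 0.0033 with GC offsets, and, leaving out 1 library at a time, Fgf15 from -0.079 to 0.034, Rax from -0.0151 to 0.167 and Zfp36l1 from -0.0721 to 0.187. When all 13 libraries shared the fit, calls fell to 1353 regions (677 higher and 676 lower), 1410 starts (521 higher and 889 lower), 1465 flanks (848 higher and 617 lower), 1433 exons (421 higher and 1012 lower) and 401 differences between steps (323 and 78). Loess offsets gave 1466 lower starts, DESeq2 3915 exon calls (1568 higher), and no TMM 6885 regions higher at P0 than at E12.5. The cause of these shifts was not tested. E10 and P2 were kept out of the main fit because E10 and P2 replicate 1 held 0 exon counts on unplaced sequence. P2 replicate 2 held 3267, so the P2 pair may differ in processing. The mean count at starts was 22.7 and 12.2 times that at region edges in the P2 libraries. Leaving out 1 library at a time gave 2188 to 6220 region calls (1243 to 2785 higher, 945 to 3435 lower), 1552 to 3714 start calls (789 to 1569 higher, 763 to 2145 lower), 1664 to 4680 flank calls (965 to 2498 higher, 699 to 2182 lower), 3744 to 5254 exon calls (1572 to 2306 higher, 2168 to 3131 lower), 13733 to 23517 window calls (8162 to 14550 higher, 5571 to 11738 lower), 1006 to 4462 step difference calls (700 to 2295 higher, 306 to 2167 lower) and 359 to 1220 RNA calls (186 to 652 higher, 173 to 568 lower). Replicate numbers did not pair the E16.5 and E14 libraries: deviations of same-numbered libraries correlated at -0.458 over regions. With the numbers as a replicate block 4871 regions, 3987 starts, 5570 exons and 1184 RNA values were called. With the E14 numbers crossed, chosen after seeing the data, the calls were 5829 regions, 4441 starts, 4516 flanks and 6248 exons. Of 144 named region calls, 75 held under every alternative, as did all 24 for starts, 24 for exons and 20 for windows. Depth limits windows far from starts, where the median was 9.75 counts.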

Other observations

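The patterning list, not described above, and some lists only counted above changed in small parts. Exon counts of the amacrine cell, axon guidance and cone genes are given above. Of 20 genes of dorsoventral and nasotemporal patterning, 6 were higher and 2 lower at E16.5, and none was called with all 13 libraries in the fit. Aldh1a3, a retinoic acid-synthesising enzyme of ventral retina, gained 0.39 and Tbx5, a factor of dorsal retina, had a log2 fold change of -0.39. Of 20 axon guidance genes, 5 were higher, led by Slit1, a repellent ligand gene, with 0.96, and 1 was lower, Sema3a, another repellent ligand gene, with -0.68. The starts of Slit1 and Sema3a alone gave 0.07 and -0.29 and did not pass the test (adjusted p = 0.848 and 0.0688 by edgeR). Of 15 amacrine cell genes, 6 were higher and 2 lower, with Ptf1a, a factor required for amacrine and horizontal cells, at 0.70. Of 18 rod genes, 2 were higher and 2 lower, and Nrl, the rod-determining factor, had 25.8 and 20.6 CPM at E16.5 against 16.1 and 19.5 CPM at E14 (log2 fold change 0.38, adjusted p = 0.00903 by edgeR). These shares stand against 9.8% higher and 9.64% lower of all regions, and the call of Nrl was lost with all 13 libraries, without E14 replicate 1 and without E16.5 replicate 1, its lowest value being 0.19. Of 11 cone genes, 2 were higher and 0 lower, and of 13 bipolar cell genes 1 was higher and 1 lower. Counting every start region, 3 cone genes had a higher one and 1 had a lower one.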
